A study of Danio rerio with 15 samples.

Results

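Notch ligands and Notch target genes were followed in Müller glia, the radial glia of the retina, during the first hours after a light lesion in adult zebrafish. Members were the probe sets whose gene symbol in the authors' deposited table was dla, dlb, dlc or dld, or began with notch, jag, hey or her followed by a digit (for hey, also by a letter). That gave 8 of the 3164 probe sets in that table, on an array with 15502 tested probe sets. There were 4 ligand probe sets (dld, dlc, jag1b and jag2), 4 target probe sets (hey1, her9, her4.2 and a probe set with several symbols of the her4 cluster) and 0 receptor probe sets. The Notch receptors were therefore not analysed here. The authors' table lists probe sets that differed at least 2-fold from unlesioned glia at some time, so each member had to change. The members' largest folds against 0 hpl were 2.72 for dld, 3.68 for jag2, 4.03 for hey1 and 2.76 for her9. For the other members, whose folds are not given because of their low values, the largest log2 changes were 1.22 for dlc, -1.11 for jag1b, 1.07 for her4.2 and -1.01 for the her4 cluster probe set. The her4 cluster probe set and her4.2 were the members closest to the limit of the table, whose smallest entry was 2.0004-fold. Of the tested probe sets, 3361 reached 2-fold at some time, and 197 of these were not in the table.

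The fish were Tg(gfap:GFP)mi2002 animals, 5 to 6 months old, in which the promoter of gfap, a gene of glial filaments, drives green fluorescent protein (GFP). GFP-positive cells were sorted from dissociated retinas at 8, 16, 24 and 36 hours post-lesion (hpl) and from retinas that received no light treatment, labelled 0 hpl. Both lesioned and unlesioned groups carried the transgene, and each group had 3 biological replicates, 1 array each, or 15 arrays in all. Whether fish were pooled for a replicate was not given in the sources used here. The number of arrays limits the precision of every value below.

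In Notch signalling, a Delta or Jagged ligand on one cell binds a Notch receptor on its neighbour. The receptor is cut, and its intracellular domain enters the nucleus and switches on transcriptional repressors of the Hairy and Enhancer of split type, named hes and hey in mammals and her and hey in zebrafish. These repressors hold back proneural factors, which in turn activate Delta genes. In the zebrafish retina Müller glia can re-enter the cell cycle after injury and produce neuronal progenitors, and Notch signalling is known to take part in keeping them quiescent.

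All levels are log2 values from RMA, a method that corrects, quantile-normalizes and summarises Affymetrix probes. Changes are differences of log2 group means with the standard error (SE) of a linear model over all 15 arrays, and a probe set was called at a limma p under 0.05 after Benjamini-Hochberg adjustment over 15502 probe sets. RMA gives no detection call, so the median of the unlesioned arrays, 4.63, was used as a guide to what is dim, and a fold is given only where the lower group mean lay above it. Levels of different probe sets were not compared with each other. Array medians ranged between 4.41 and 4.67, and arrays of 1 group correlated with r between 0.973 and 0.991. The median change of all probe sets against 0 hpl was -0.10 at 8 hpl, -0.14 at 16 hpl, -0.11 at 24 hpl and -0.14 at 36 hpl. Scaling the arrays on 18 hybridisation control probe sets moved these medians to 0.19, 0.25, 0.21 and 0.38, and moved the share of rises among called probe sets at 8 hpl to 87.4%, against 45.3% as deposited. At 36 hpl that share became 88.2%, against 42.8% as deposited. Centring each array on its median gave 66.3% at 8 hpl and 52.6% at 36 hpl. A change is therefore relative to the other probe sets.

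The ligand dld, a Delta gene that is expressed in neurogenic cells of the zebrafish embryo, was lower early and higher late. Its 3 arrays read 5.52, 5.17 and 5.12 at 0 hpl, 4.66, 3.94 and 3.77 at 8 hpl, 4.38, 4.93 and 4.95 at 16 hpl, 6.36, 6.10 and 6.01 at 24 hpl, and 7.03, 6.60 and 6.51 at 36 hpl. Every array at 8 and 16 hpl lay below every unlesioned array, and every array at 24 and 36 hpl lay above every unlesioned array. The arrays at 8 and 16 hpl overlapped with each other, and those at 24 and 36 hpl did not. Because dld was picked for this course, its changes are given without a test, and it is left out of the counts of called members. They were -1.15, -0.52, 0.88 and 1.44 at 8, 16, 24 and 36 hpl against 0 hpl (SE 0.23 each). The mean was 6.16 ± 0.18 at 24 hpl and 4.75 ± 0.32 at 16 hpl (SD, n = 3 each), a step of 1.40 or 2.65-fold. The step between 36 and 24 hpl was smaller, 0.56, and that between 16 and 8 hpl was 0.63.

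The second Delta ligand, dlc, which is best known from the somite clock and from neurogenesis of the embryo, passed the test against 0 hpl at 36 hpl and at no earlier time. Its 3 unlesioned arrays read 3.46, 3.44 and 3.45. They were followed by 3.09, 3.17 and 3.15 at 8 hpl, 3.40, 3.26 and 3.31 at 16 hpl, 3.48, 3.42 and 3.42 at 24 hpl, and 4.5, 4.79 and 4.73 at 36 hpl. The arrays at 36 hpl lay above all others, and those at 24 hpl overlapped with the unlesioned ones. The rise was 1.22 ± 0.11 (SE) at 36 hpl against 0 hpl (limma adjusted p = 6.54e-07). Between 36 and 24 hpl dlc rose by 1.23 (adjusted p = 4.17e-06). But dlc is in the authors' table through its level at 36 hpl alone. The contrast of 36 with 0 hpl is thus the one that selected it, and its p-value is a description. The step from 24 hpl reuses the same group. No fold is given, since the values up to 24 hpl lay below 4.63 and were not shown to be above background. At 8 hpl the change was -0.32 and did not pass the test (adjusted p = 0.0526), though it did without replicate 1 (0.0454) or replicate 2 (0.0495) of 36 hpl. At 24 hpl the changes were 0.88 for dld and -0.01 for dlc.

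**Figure D1:**
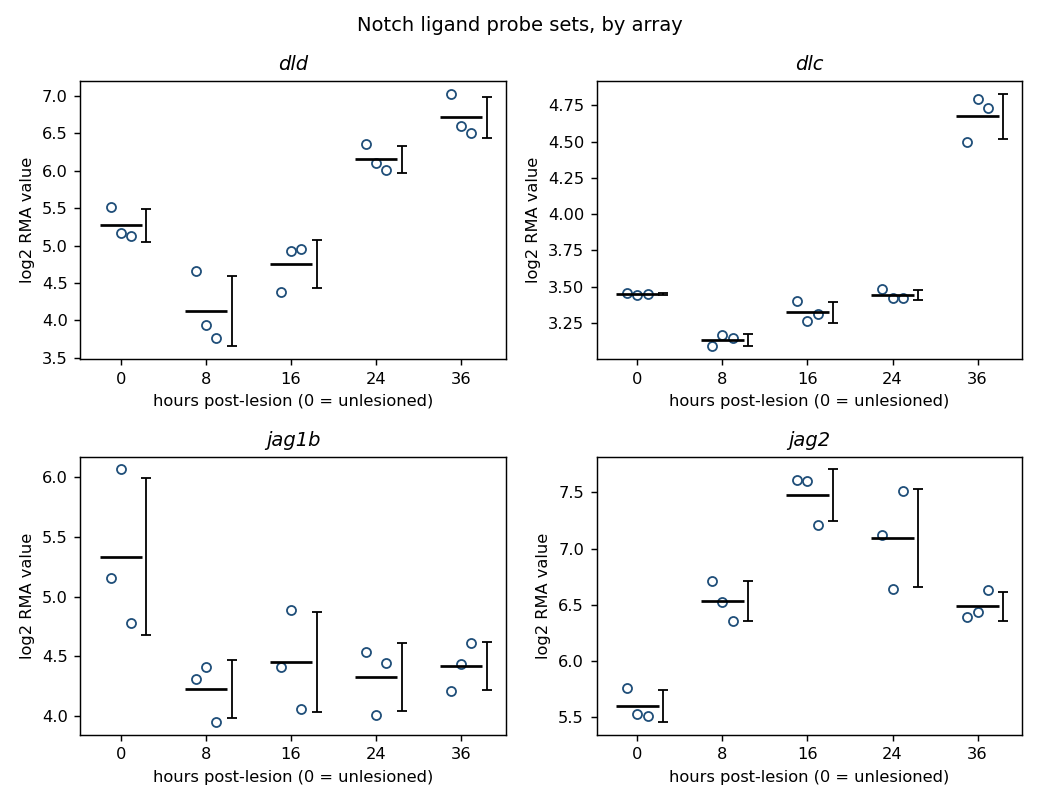
Levels of the 4 Notch ligand probe sets at 0, 8, 16, 24 and 36 hours post-lesion (x axis) as log2 RMA values (y axis, scaled separately for each panel), with open circles for the 3 arrays of a group, a bar for their mean and an error bar for the SD. The dld arrays are lowest at 8 hpl and highest at 36 hpl, dlc stands apart at 36 hpl, jag1b is highest and most spread at 0 hpl, and jag2 has its highest mean at 16 hpl.

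The Jagged ligands moved in opposite directions. At 0 hpl the 3 arrays of jag2, which current RefSeq annotation names jag2b, read 5.76, 5.52 and 5.51. Later readings were 6.71, 6.53 and 6.35 at 8 hpl, 7.62, 7.60 and 7.21 at 16 hpl, 7.12, 6.64 and 7.51 at 24 hpl, and 6.39, 6.44 and 6.63 at 36 hpl. All 12 lesioned arrays lay above all unlesioned arrays. It rose 1.91-fold at 8 hpl (log2 change 0.93 ± 0.19 SE, adjusted p = 0.00263), 3.68-fold at 16 hpl (1.88, adjusted p = 2.02e-06), 2.82-fold at 24 hpl (1.5, adjusted p = 1.93e-05) and 1.85-fold at 36 hpl (0.89, adjusted p = 0.00158). The highest mean was that at 16 hpl. Against 8 hpl, jag2 was higher at 16 hpl by 0.95 (adjusted p = 0.00636), and at 36 hpl it was 1.99-fold lower than at 16 hpl (-0.99, adjusted p = 0.00345). But jag2 is in the authors' table through 16 and 24 hpl alone, so both differences reuse a group that selected it. The tests of jag2 at 16 and 24 hpl against 0 hpl are on the contrasts that selected it. Those at 8 and 36 hpl reuse the unlesioned group of these contrasts. These p-values, and the place of the highest mean, are therefore a description. The change of -0.38 at 24 against 16 hpl was not called (adjusted p = 0.494). The arrays at 36 and 8 hpl overlapped, with a difference of -0.05 (adjusted p = 0.918). A change of -0.61 at 36 against 24 hpl did not pass (adjusted p = 0.0844), though it did without replicate 2 of 24 hpl (-0.83, 0.0235) and after further quantile normalization (-0.66, 0.037).

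For jag1b the unlesioned arrays read 5.16, 6.06 and 4.78. The lesioned arrays read 4.31, 4.41 and 3.95 at 8 hpl, 4.41, 4.89 and 4.06 at 16 hpl, 4.53, 4.01 and 4.44 at 24 hpl, and 4.21, 4.43 and 4.61 at 36 hpl. Replicate 2 was the highest unlesioned array, and at 16 hpl 1 array overlapped with the unlesioned group. Its changes were -1.11 ± 0.28 (SE) at 8 hpl (adjusted p = 0.00953), -0.88 at 16 hpl (0.0205), -1.01 at 24 hpl (0.0118) and -0.92 at 36 hpl (0.0144), so that it fell at each time. The means after the lesion, 4.22 to 4.45, lay below 4.63, and no fold is given. As jag1b is in the authors' table through 8 and 24 hpl, the p-values at these times are on contrasts that selected it. Those at 16 and 36 hpl reuse the unlesioned group of these contrasts, so the p-values at each time are a description. No step between lesioned times passed the test, with adjusted p between 0.717 and 0.978. Scaling on the hybridisation controls ended the calls at all 4 times, with adjusted p of 0.0612, 0.229, 0.1 and 0.288. Leaving out unlesioned replicate 2 ended those at 16, 24 and 36 hpl (changes of -0.52, -0.64 and -0.55, adjusted p = 0.103, 0.0613 and 0.0773). Calls also ended at 16 hpl without replicate 1 (0.0532) or 3 (0.0979) of that time, at 24 hpl without its replicate 2 (0.0563) and at 36 hpl without its replicate 1 (0.0506). Fitting only the groups compared ended the call at 16 hpl (0.0583). At 16 hpl jag2 and jag1b changed by amounts that differed by 2.76, with an exact two-sided permutation p of 0.1. That is the smallest p that 3 against 3 arrays can give, and it stayed 0.1 after adjustment over the 4 such differences computed. The contrast of 16 with 0 hpl selected jag2, so this difference and its p are a description.

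Among the targets, hey1, a Hairy-related repressor induced by Notch in many tissues, was lower at every time after the lesion. The unlesioned arrays read 8.98, 9.81 and 9.41. Readings after the lesion were 8.25, 7.56 and 7.15 at 8 hpl, 6.85, 7.45 and 7.87 at 16 hpl, 7.11, 7.43 and 8.17 at 24 hpl, and 8.06, 7.17 and 7.97 at 36 hpl. No lesioned array reached the lowest unlesioned one, and the 4 lesioned groups overlapped with each other. It fell at all 4 times. Its log2 changes were -1.75 at 8 hpl (SE 0.35, 3.35-fold lower, adjusted p = 0.00199), -2.01 at 16 hpl (4.03-fold lower, 0.000315), -1.83 at 24 hpl (3.56-fold lower, 0.000699) and -1.67 at 36 hpl (3.18-fold lower, 0.00114). But hey1 is in the authors' table through each of these 4 times. The tests against 0 hpl are thus on the contrasts that selected it, and their p-values are a description. No comparison between lesioned times passed the test.

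The course of her9 was nearer to that of dld. This Hes1-related repressor is expressed in parts of the zebrafish embryo without need of Notch, so that its place among Notch targets depends on the tissue. Its arrays read 5.86, 5.54 and 6.06 at 0 hpl, 5.54, 4.98 and 4.83 at 8 hpl, 5.53, 5.49 and 5.88 at 16 hpl, 6.25, 6.49 and 6.84 at 24 hpl, and 7.99, 7.21 and 6.66 at 36 hpl. The arrays at 24 and 36 hpl lay above all earlier arrays and overlapped with each other, and those at 36 hpl were the most spread. At 36 hpl her9 rose 2.76-fold against 0 hpl (1.46 ± 0.28 SE, adjusted p = 0.000597). Changes of -0.71 at 8 hpl and 0.70 at 24 hpl did not pass the test (adjusted p = 0.0728 and 0.0703). The value at 24 hpl passed it after median centring (0.0414), after scaling on the hybridisation controls (0.0177), with only the groups compared (0.0242) and without replicate 1 (0.0266) or 3 (0.0367) of 36 hpl. That at 8 hpl passed it without replicate 1 of 8 hpl (0.042) or replicate 1 (0.0312) or 3 (0.0419) of 36 hpl. Against 8 hpl, her9 was 2.66-fold higher at 24 hpl (1.41, adjusted p = 0.00277) and 4.51-fold higher at 36 hpl (2.17, adjusted p = 4.12e-05). As her9 is in the authors' table through 36 hpl alone, its comparisons with 36 hpl reuse the group that selected it.

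The her4 genes are Hes5-related repressors of neural progenitors that depend on Notch in the embryo, and they lie side by side on chromosome 23 in the GRCz12tu RefSeq annotation, between her12 and further copies. Both her4 probe sets can share signal among these near-identical copies, so the values belong to the probe set and not surely to 1 gene. The suffix of the her4.2 probe set marks probes that also match other sequences. The other probe set carries 3 symbols, of which one is again her4.2, and no gene is named from it. Both were dim at all times, with every group mean under 4.63, and no fold is given for either.

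The her4.2 probe set read 3.16, 3.03 and 3.02 at 0 hpl, 2.95, 2.51 and 3.0 at 8 hpl, 3.01, 2.91 and 2.88 at 16 hpl, 3.48, 3.35 and 3.75 at 24 hpl, and 4.27, 4.41 and 3.76 at 36 hpl. All arrays at 24 and 36 hpl were above all earlier ones, and each array at 36 hpl was above each at 24 hpl. It rose by 1.07 ± 0.18 (SE) at 36 hpl against 0 hpl (adjusted p = 0.000162). Against 16 hpl the value at 36 hpl was higher by 1.21 (adjusted p = 0.000286), and against 8 hpl by 1.33 (adjusted p = 5.62e-05). The probe set is in the authors' table through 36 hpl alone, so its comparisons with 36 hpl reuse the group that selected it. Differences of 0.45 at 24 against 0 hpl and 0.62 at 36 against 24 hpl did not pass (adjusted p = 0.0642 and 0.0559). Both passed after scaling on the hybridisation controls (0.015 and 0.0425), after further quantile normalization (0.0338 and 0.0415) and without replicate 3 of 36 hpl (0.0343 and 0.0124). With only the groups compared the first passed (0.0492). The step between 36 and 24 hpl also passed with trend and robust options (0.045), with array weights (0.0304) and without replicate 2 (0.0444) or 3 (0.0496) of 8 hpl or replicate 3 of 24 hpl (0.041).

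The her4 cluster probe set, like her4.2, had its lowest mean at 8 hpl and rising means from then to 36 hpl. Unlike her4.2, it had its highest mean at 0 hpl. Its r with her4.2 was 0.57 over the 15 arrays and 0.65 after the group means were subtracted. Its arrays read 3.22, 3.91 and 3.35 at 0 hpl, 2.46, 2.35 and 2.63 at 8 hpl, 2.50, 2.69 and 2.72 at 16 hpl, 2.82, 2.67 and 3.18 at 24 hpl, and 3.55, 3.63 and 2.85 at 36 hpl. Up to 24 hpl every lesioned array was below every unlesioned array, and at 36 hpl the groups overlapped. It fell at 8, 16 and 24 hpl, with changes of -1.01 (SE 0.22, adjusted p = 0.00338), -0.86 (0.00553) and -0.60 (0.0462). Scaling on the hybridisation controls ended the calls at 16 hpl (-0.47, adjusted p = 0.147) and 24 hpl (-0.29, 0.426). The call at 24 hpl was also lost after further quantile normalization (0.168), after median centring (0.106), under a block for the replicate number (0.0628), with only the groups compared (0.0629), without both arrays that limma gave a low weight, replicate 3 of 0 hpl and of 8 hpl (0.0512), and in 9 of 15 fits with 1 array left out (replicates 2 and 3 of 0 hpl, 1 and 2 of 8 hpl, all of 16 hpl, and 1 and 2 of 24 hpl). At 36 hpl the change was -0.15 (adjusted p = 0.595), and against 8 hpl the probe set was higher by 0.86 (adjusted p = 0.0094), a call that ended without replicate 2 at 36 hpl (0.0519). It is in the authors' table through 8 hpl alone, so its comparisons with 8 hpl reuse a group that selected it. The falls at 16 and 24 hpl reuse the unlesioned group of that contrast. Its p-values against 0 hpl are therefore a description. At 36 hpl the changes of the her4.2 and her4 cluster probe sets differed by 1.22, with an exact two-sided permutation p of 0.1, again the smallest possible. The contrast of 36 with 0 hpl selected her4.2, so this difference and its p are a description.

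**Figure D2:**
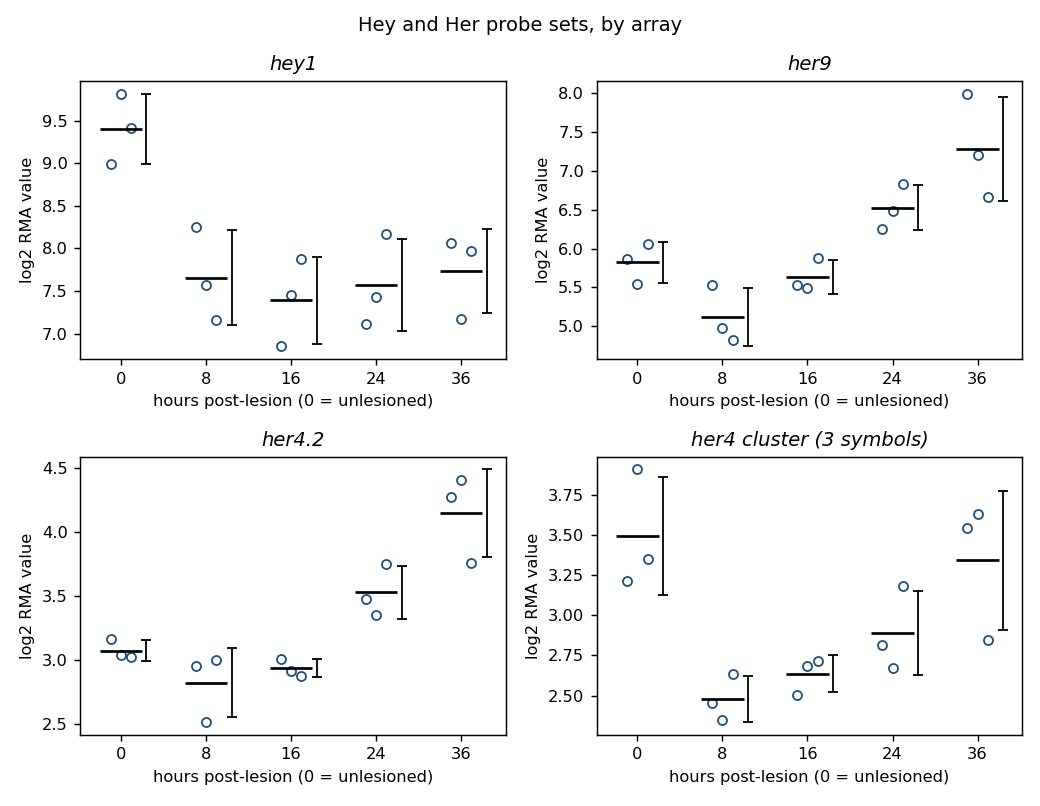
Levels of the 4 Notch target probe sets at 0, 8, 16, 24 and 36 hours post-lesion (x axis) as log2 RMA values (y axis, scaled separately for each panel), with open circles for the 3 arrays of a group, a bar for their mean and an error bar for the SD. All hey1 arrays after the lesion lie below the unlesioned ones, her9 and her4.2 are highest at 36 hpl, and the her4 cluster probe set is lowest at 8 hpl.

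Counted at 8 hpl against 0 hpl, 4 of the 7 members other than dld were called, against 26.5% of all probe sets. Of these 1 was higher (background 12%) and 3 were lower (14.5%). At 16 hpl 4 of 7 were called against 40.3%, with 1 higher (18.4%) and 3 lower (21.9%). At 24 hpl 4 of 7 were called against 30.5%, with 1 higher (16.3%) and 3 lower (14.2%). At 36 hpl 6 of 7 were called against 46.6%, with 4 higher (19.9%) and 2 lower (26.6%). The test over all times called 7 of 7, against 46% of all probe sets. The median change of all 8 members, dld included, was -0.86 at 8 hpl, -0.35 at 16 hpl, 0.22 at 24 hpl and 0.98 at 36 hpl. For all probe sets it was -0.10, -0.14, -0.11 and -0.14. The table that names the members used these contrasts, and dld was picked for its course. Nothing is therefore read from the counts or the medians.

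Comparisons between lesioned times reuse the groups through which members entered the table. These were 36 hpl alone for dlc, her9 and her4.2, and 8 hpl alone for the her4 cluster probe set. They were 16 and 24 hpl for jag2, 8 and 24 hpl for jag1b, and 8, 16, 24 and 36 hpl for hey1. The counts of these comparisons are therefore also given as a description, and nothing is read from them. At 16 against 8 hpl 1 of 7 was called, jag2, against 8.59% of all probe sets (5.48% higher, 3.12% lower). At 24 against 16 hpl limma called 0 of 7, against 0.561% (0.29% higher, 0.271% lower), and 2 of 7 (her9 and her4.2) had an unadjusted p under 0.05. At 36 against 24 hpl 1 of 7 was called, dlc, against 5.14% (3.11% higher, 2.03% lower).

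Over longer spans, 2 of 7 were called at 24 hpl against 8 hpl (her9 and her4.2, both higher), against 14.4% of all probe sets (7.73% higher, 6.68% lower). The her4.2 call there ended without replicate 2 of 8 hpl (adjusted p = 0.0669) or replicate 3 of 24 hpl (0.0651). At 36 hpl against 8 hpl 4 of 7 were higher (dlc, her9, her4.2 and the her4 cluster probe set), against 20.9% (12% higher, 8.84% lower). At 36 hpl against 16 hpl 3 of 7 were higher (dlc, her9 and her4.2) and 1 lower (jag2), against 8.78% (5.12% higher, 3.66% lower). The her4 cluster probe set was higher there by 0.71 and did not pass (adjusted p = 0.056). It did pass after scaling on the hybridisation controls (0.0417), with trend and robust options (0.0346) and with array weights (0.0404). The same held without replicate 2 of 0 hpl (0.0363) or replicate 3 of 36 hpl (0.00808).

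**Figure D3:**
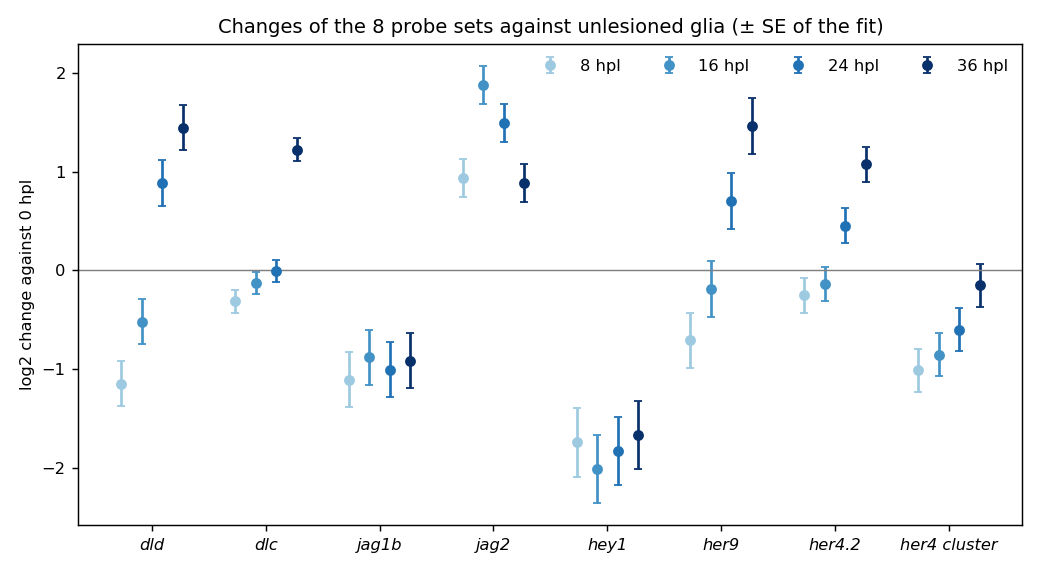
Change against 0 hpl on the log2 scale (y axis) of the 4 ligand and 4 target probe sets (x axis) at 8, 16, 24 and 36 hours post-lesion (light to dark), with points for the difference of group means and error bars for the standard error of the linear model. At 36 hpl dld, dlc, jag2, her9 and her4.2 are above 0, with changes between 0.89 and 1.46, while jag1b and hey1 are at -0.92 and -1.67.

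Ordered by level, dld, her9 and her4.2 had one order of times, 36, 24, 0, 16 and 8 hpl from highest to lowest. For her9 and her4.2 no neighbours in that order differed at the threshold (adjusted p between 0.0559 and 0.819). In dlc the order was 36, 0, 24, 16 and 8 hpl, and among neighbours only 36 and 0 hpl differed. For jag2 it was 16, 24, 8, 36 and 0 hpl, with a called difference between 36 and 0 hpl alone. In hey1 and jag1b 0 hpl was highest and differed from the next time, 36 hpl for hey1 and 16 hpl for jag1b, while no pair of lesioned times passed the test. In the her4 cluster probe set 0 hpl was also highest, followed by 36, 24, 16 and 8 hpl, with no called neighbours. Each called difference named here is with 0 hpl, a group of every contrast that selected the members, and is a description.

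Across the 15 arrays dld correlated with her9 at r = 0.93, with her4.2 at 0.88, with dlc at 0.76, with the her4 cluster probe set at 0.55, with hey1 at 0.05, with jag1b at 0.02 and with jag2 at -0.03. These are descriptions over 15 arrays in 5 groups, which share the time course and the normalization. After the group means were subtracted, the correlation of dld was 0.55 with her9, 0.16 with her4.2 and -0.57 with dlc. All dlc arrays up to 24 hpl lay below 4.63 and were not shown to be above background. Nothing is therefore read from its correlation with dld within times. For jag1b and hey1 r was 0.71 over all arrays and 0.19 within times, and for jag2 and hey1 it was -0.71 and 0.19.

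Among 1963 probe sets with a gene name in the authors' table, whose median r with dld was 0.15, the 10 most like dld were rpa2 (0.94), cdca7a (0.93), her9 (0.93), lrrc20 (0.92), mcm2 (0.91), mcm4 (0.91), mcm5 (0.91), sox11b (0.90), chek2 (0.90) and rpa3 (0.90). The products of mcm2, mcm4 and mcm5 are subunits of the replicative helicase, those of rpa2 and rpa3 bind single-stranded DNA, chek2 encodes a checkpoint kinase and sox11b a SoxC transcription factor of neural progenitors. All 10 were among the 50 most like dld when r was taken over the 5 group means, and 9 of 10 by Spearman's rho. Both rankings use the arrays by which the 10 were chosen, so they are a description and no test. At 36 hpl against 0 hpl their changes included 3.50 for cdca7a, 3.03 for mcm4, 2.94 for rpa3, 2.54 for mcm2, 2.32 for mcm5 and 1.0 for chek2. Within times the correlation with dld was 0.88 for sox11b, 0.67 for rpa2, 0.56 for lrrc20, 0.55 for her9, 0.52 for mcm4, 0.47 for rpa3 and 0.46 for chek2. It was lower for cdca7a (0.38), mcm5 (0.27) and mcm2 (0.25). At 8 hpl against 0 hpl only rpa2 was called lower among the 10 (-0.82, adjusted p = 0.000385). The others lay between -0.73 for cdca7a and -0.07 for sox11b. As the 10 were chosen for likeness to dld on these arrays, the rpa2 p-value is a description. At the other end were aclya (-0.92), nectin3b (-0.90), ptmaa (-0.87), cav1 (-0.86) and optn (-0.84), with changes at 36 hpl of -1.16, -1.20, -1.57, -1.31 and -0.15. In this ranking her9 was the only other member among the 10.

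**Figure D4:**
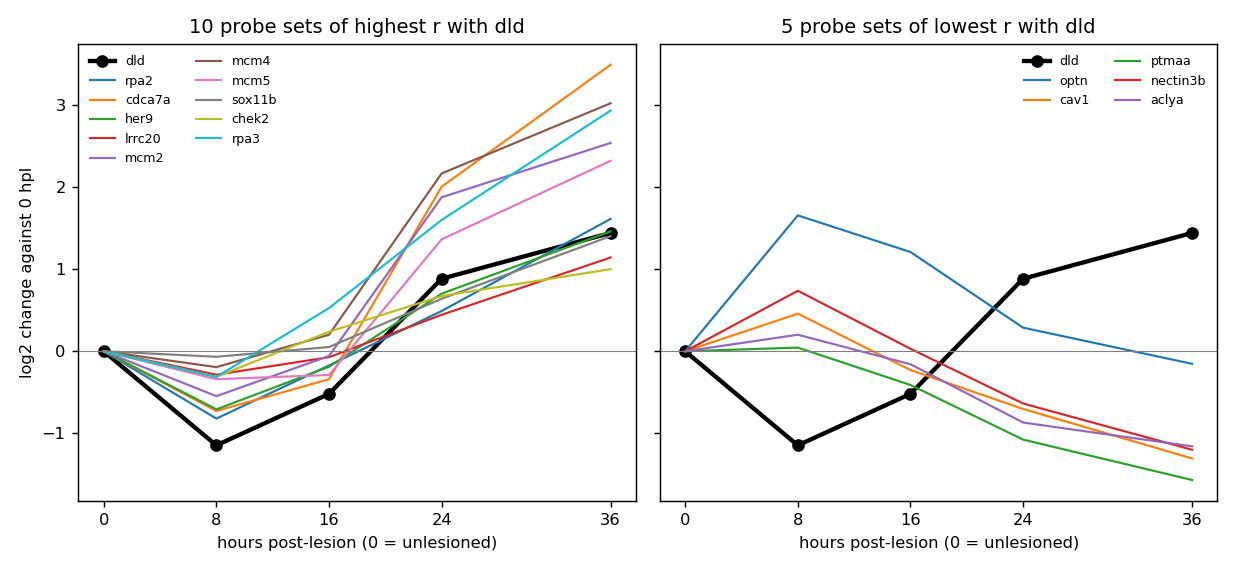
Change against 0 hpl on the log2 scale (y axis) at 0, 8, 16, 24 and 36 hours post-lesion (x axis) for dld together with the 10 named probe sets of highest and the 5 of lowest Pearson r with it over 15 arrays. The similar genes share the late high levels of dld and differ in size, with changes at 36 hpl between 1.0 for chek2 and 3.50 for cdca7a, against 1.44 for dld.

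Of the other genes of the Notch pathway, 9 had a named probe set in the authors' table, which again holds only probe sets with a 2-fold change. Their tests against 0 hpl are on contrasts that selected them or reuse the unlesioned group of these contrasts. Their p-values against 0 hpl are therefore a description. Higher at all 4 times were adam17a, a metalloprotease of the family that cuts Notch and its ligands, tle3b, a Groucho-type co-repressor, nle1 (Notchless), which also acts in ribosome assembly, and pofut2, which adds O-fucose to thrombospondin repeats. Changes were 0.77, 1.11, 1.19 and 1.02 for adam17a at 8, 16, 24 and 36 hpl, and 0.98, 0.92, 1.63 and 1.94 for tle3b. For nle1 they were 0.93, 1.25, 1.31 and 0.92, and for pofut2 0.71, 1.24, 1.60 and 1.82, all 16 values past the test. The fucosyltransferase that acts on Notch itself, pofut1, rose at 36 hpl (1.32 ± 0.21 SE, adjusted p = 0.000125), on the contrast that selected it. All pofut1 arrays up to 24 hpl lay below 4.63. At 24 hpl it did not pass (0.54, adjusted p = 0.066), but did after scaling on the hybridisation controls (0.0177), after further quantile normalization (0.0399) and without replicate 2 of 0 hpl (0.0352) or replicate 1 (0.0432) or 2 (0.0487) of 8 hpl. Both these scalings also brought its 0.40 at 16 hpl past the threshold (0.0256 and 0.0456). It also rose between 36 and 24 hpl, by 0.78 (adjusted p = 0.0431).

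Lower at all 4 times were lfng and dtx3. The fringe glycosyltransferase lfng, which modifies Notch and shifts its response to ligands, read 9.91, 9.52 and 9.58 at 36 hpl, against 10.83, 10.78 and 10.62 at 0 hpl, without overlap. Its changes were -0.61 at 8 hpl (SE 0.14), -0.84 at 16 hpl, -1.14 at 24 hpl and -1.07 at 36 hpl (adjusted p = 2.21e-05 at 36 hpl), and scaling on the hybridisation controls ended its calls at 8 hpl (0.302) and 16 hpl (0.105). The deltex-family ligase gene dtx3 changed by -0.58, -0.69, -0.45 and -1.08, of which that scaling ended the first 3 calls (0.325, 0.26 and 0.658). Its call at 8 hpl also ended without replicate 3 of 0 hpl (0.058) or both arrays of low weight (0.0724) and with only the groups compared (0.0775). That at 24 hpl ended after median centring (0.0714), with trend and robust options (0.0622), array weights (0.0707) or only the groups compared (0.116), without replicate 3 of 0 hpl (0.189) or replicate 1 (0.0999) or 3 (0.133) of 24 hpl, and without both arrays of low weight (0.183). For nrarpb, a Notch-induced feedback inhibitor, the changes were -0.93, -1.25, -1.16 and -1.41 (SE 0.51), of which the last alone passed (adjusted p = 0.0333). Without unlesioned replicate 3 that last value was -0.72 (adjusted p = 0.19), and without replicate 2 or 3 of 36 hpl it was -1.04 (0.151) or -1.41 (0.0693). The call also ended after scaling on the hybridisation controls (-0.90, 0.169), after further quantile normalization (0.0558), with trend and robust options (0.0576), with array weights (0.0785), with only the groups compared (0.0756) and without both arrays of low weight (0.139). Without replicate 2 of 0 hpl the values at 16 and 24 hpl passed as well (-1.73 and -1.65, adjusted p = 0.0167 and 0.0272). The clock-linked repressor bhlhe41 fell by 2.22 at 8 hpl and was back at 0.06 at 16 hpl, a step of 2.29 (adjusted p = 0.000299). Its -0.40 at 24 hpl was not called, and without replicate 1 of 0 hpl it was -0.81 (adjusted p = 0.0213).

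In counts, 7 of these 9 genes were called at 8 hpl (4 higher, 3 lower), against 26.5% of all probe sets. The count was 6 at 16 hpl (4 higher, 2 lower) against 40.3%, 6 at 24 hpl (4 higher, 2 lower) against 30.5% and 8 at 36 hpl (5 higher, 3 lower) against 46.6%, and nothing is read from these counts, since the table selected the genes on these contrasts. Their median changes were 0.05, 0.40, 0.54 and 0.92. By role, the table named 4 of 23 listed genes of ligand and receptor processing, 1 of 21 of the transcription complex and 2 of 17 modulators. Between the lesioned times 2 of 9 rose from 8 to 16 hpl (bhlhe41 and pofut2), and 1 rose (pofut1) and 1 fell (dtx3, -0.62, adjusted p = 0.0293) from 24 to 36 hpl. Of these, pofut1 and dtx3 reached 2-fold at 36 hpl alone, bhlhe41 at 8 hpl alone and pofut2 from 16 hpl on. Their steps therefore also reuse groups that selected the genes.

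The list of proneural and neurogenic factors also takes in a progenitor factor and inhibitors of bHLH factors. It had 8 of its 29 genes in the table, which were likewise selected for a 2-fold change. At 8 hpl 5 were higher and 2 lower, against 12% and 14.5% of all probe sets, and at 16 hpl 4 and 2, against 18.4% and 21.9%. At 24 hpl 5 were higher and 2 lower, against 16.3% and 14.2%, and at 36 hpl 5 and 1, against 19.9% and 26.6%. Nothing is read from these counts either, since the table selected the genes on these contrasts. The p-values of these genes against 0 hpl are a description for the same reason. The SoxC gene sox4a rose by 2.61, 3.41, 3.15 and 2.62, and six3b, an eye-field homeobox gene, by 2.08, 2.67, 2.86 and 2.34. The progenitor factor sox2 rose by 1.06, 0.85, 0.62 and 0.38, and its last call (adjusted p = 0.0367) ended without any 1 array of 36 hpl or without replicate 1 or 3 of 0 hpl (0.0516 to 0.114). That call also ended after further quantile normalization (0.0989), with only the groups compared (0.0719) and without both arrays of low weight (0.0783). Only sox11b among the risers was first called at 24 hpl (0.64, then 1.41 at 36 hpl), a call at 24 hpl that ended without replicate 3 of 0 hpl (0.0856) or replicate 1 of 24 hpl (0.0787). Leaving out both arrays of low weight ended it too (0.054). The bHLH gene atoh8 fell at all 4 times, with changes of -2.27, -3.14, -1.88 and -1.39. The inhibitors of bHLH factors differed, with id3 at -0.58, -1.80, -0.59 and -0.25 (the last not called) and id4 at 1.03, -0.14, -0.09 and -0.26 (the first alone called). For id3 the calls at 8 and 24 hpl ended under scaling on the hybridisation controls (0.328 and 0.341) and without replicate 3 of 0 hpl (0.0679 and 0.051). They also ended without replicate 1 of 8 hpl (0.0531) and replicate 1 of 24 hpl (0.0647). Without both arrays of low weight the id3 values at 8 and 24 hpl did not pass either (0.108 and 0.0516).

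**Figure D5:**
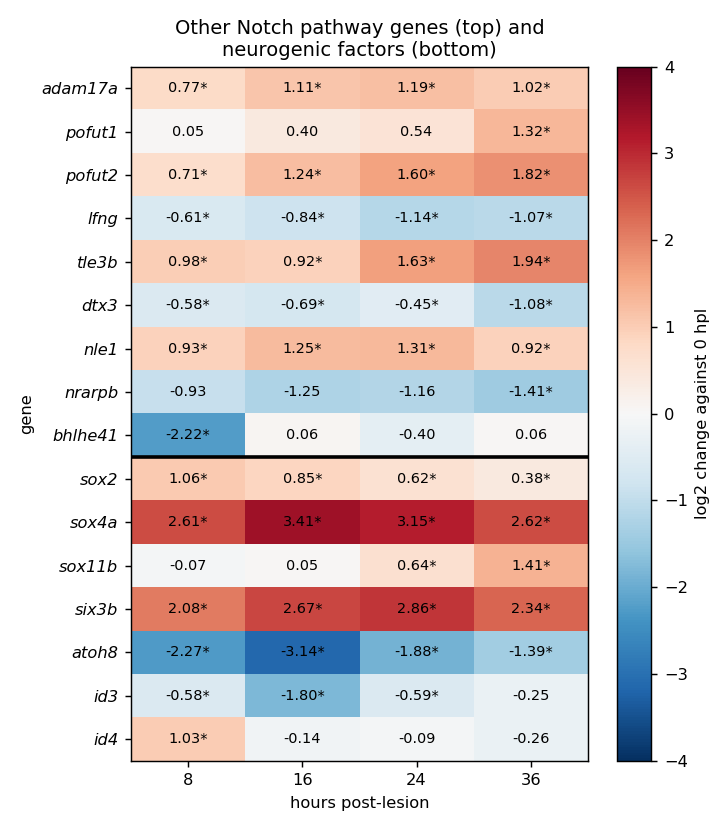
Map of the log2 change against 0 hpl for 9 named genes of the Notch pathway and 7 proneural and neurogenic factors (rows) at 8, 16, 24 and 36 hours post-lesion (columns), coloured by the change, with the value printed in each cell and an asterisk where the adjusted p was under 0.05. The highest value is that of sox4a, 3.41 at 16 hpl, and the lowest that of atoh8, -3.14 at 16 hpl.

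Markers of the sorted cells and of other cells moved over the same times. Of 20 listed Müller glia markers 9 were named in the table, and their mean level per array ranged from 7.83 to 8.05 at 36 hpl, against 9.19 to 9.47 at 0 hpl. At 36 hpl 8 of the 9 fell (background 26.6%) and 1, glulb, rose (19.9%). The visual-cycle gene rlbp1a averaged 9.56 at 36 hpl and 11.33 at 0 hpl. Glutamine synthetase, glula, averaged 10.65 at 36 hpl and 11.75 at 0 hpl. Among the other markers that fell, s100b averaged 3.59 at 36 hpl and 6.57 at 0 hpl. For rx2 the means were 5.09 at 36 hpl and 6.81 at 0 hpl, and for cyp26a1 8.67 and 10.60. The s100b mean at 36 hpl lay below the median of the unlesioned arrays, the guide to what is dim. The gene gfap was not among the named probe sets. Photoreceptor markers (11 of 32 named) had a mean level per array of 5.63 to 6.34 at 36 hpl. At 0 hpl it was 6.77 to 7.70. Of the 11, 10 were lower at 24 hpl (background 14.2%) and 10 at 36 hpl (26.6%). Other retinal neuron markers (6 of 33 named) had 3 higher (background 12%) and 2 lower (14.5%) at 8 hpl and 3 lower at 36 hpl (26.6%). Endothelial and mural markers, 3 of 32 named, averaged 3.80 to 4.54 at 36 hpl and 4.72 to 4.84 at 0 hpl. At 36 hpl cldn5a rose (1.2, adjusted p = 0.000688), while kdrl (-1.19, 0.00983) and rgs5a (-1.52, 4.01e-05) fell. Of 23 listed microglia markers 0 were named. Pigment epithelium was represented by rpe65a alone, with a change of -1.65 at 36 hpl, and red blood cells by cahz, which is also a Müller glia marker. The named markers were likewise selected for a 2-fold change against 0 hpl. Their counts and p-values are therefore a description, and nothing is read from them. In sorted bulk samples, fewer cells of a type and less RNA per cell cannot be told apart. The part of cell composition in the falls of hey1 and jag1b and in the rises of dlc, jag2, her9 and her4.2 was not tested.

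The authors' deposited table gives its own p-value for each time against 0 hpl, with a test and an adjustment that the file does not describe. A further p-value column is headed FDRCI, without an explanation. What size of change the authors tested against is not stated, so their p-values and those of limma may not answer the same question. Of its 32 values for the 8 members, 1 was under 0.05, that of jag2 at 16 hpl (0.0457, signed fold 3.68 in the authors' deposited table). For dlc at 36 hpl the authors' deposited table gives 0.401, and for hey1 at 16 hpl 0.247. Recomputing its fold changes from the group means gave the same log2 changes within 6.93e-10, so the p-values differ from those of limma by the test or its adjustment and not by the values.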

How the data were processed

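RNA of GFP-positive sorted cells (20 ng per sample, amplified and labelled with biotin, per the labels' protocols) was hybridised to Affymetrix zebrafish arrays. The deposited values are log2 values that the authors made by RMA, per the submitters' processing notes. Which RMA software was used is not given in the sources used here. The authors' deposited table holds signed fold changes against 0 hpl and p-values, per the file headers, with the test and adjustment not stated. Samples were grouped by labelled time.

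Of 15617 probe sets, 115 Affymetrix controls were dropped, and no other filter was used. Group means were estimated in 1 linear model of the 15 arrays (limma 3.58.1, R 4.3.3), whose code was tested on simulated data. Contrasts compared all pairs of times. Exact permutation tests used SciPy 1.17.1. Gene names came from the authors' table (2511 probe sets with 1 symbol, 108 with several, 545 with none). Of the 2511, 1007 were current in RefSeq, 976 were updated from a synonym and 528 were kept as given.

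The members, gene lists and tests were chosen with earlier results of these data known. Named were every member, the 10 named probe sets of highest and the 5 of lowest Pearson r with dld, every named gene of the Notch pathway lists, and the proneural and neurogenic factors called against 0 hpl (up to 10), of which 1 is counted but not reported by itself here. Other genes named are cell type markers from fixed lists.

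Replicate numbers recur in each group. Same-numbered arrays had deviations from their group means that correlated between -0.34 and 0.40 over 30 pairs, and 9 exceeded 0.1. In 1 comparison, 36 against 16 hpl, all 3 pairs did (0.40, 0.19 and 0.27), and the replicate block changed no member call there. Alternatives were further quantile normalization, median centring, scaling on hybridisation controls, leaving out the dimmest 25% of probe sets, eBayes with trend and robust options, array weights, the replicate block, fits of only the groups compared, stricter thresholds, and each array left out in turn. Leaving out both arrays of weight under 0.5 (replicate 3 of 8 hpl, weight 0.374, and replicate 3 of 0 hpl, weight 0.478) was chosen after seeing the data.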

Additional observations from a re-analysis of the deposited data

How the results depend on the processing

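Among 3532 values of single genes under the alternatives, 1900 of them of members, 70 changed sign (43 of members), none where the change was called under either setting. Calls were lost in 77 values (33 of members) and gained in 48 (37 of members). Counts of called members here take in dld, which was picked for its course and is the 1 member counted from 16 to 24 hpl, so that its part in them is no test. Scaling on the hybridisation controls gave 2 called members at 16 against 0 hpl, where 4 were called as deposited, and 2 at 36 against 24 hpl, where 1 was. Further quantile normalization gave 3 in that last step, and the trend and robust options and array weights 2 each. Array weights also gave 2 from 8 to 16 hpl, where 1 was called. Requiring 2-fold gave 2 members at 16 hpl, 3 at 24 hpl and 0 from 8 to 16 hpl. The same requirement gave 1 of the other Notch pathway genes at 8 hpl and 3 at 16 hpl, and 4 proneural and neurogenic factors at 24 hpl. An adjusted p under 0.01 gave 3 members at 24 hpl and 0 from 16 to 24 hpl. Without the dimmest 25% of probe sets, which removed her4.2 and the her4 cluster probe set, 3 members were called at 36 against 8 hpl. With 1 array left out, called members numbered 3 to 7 at 24 hpl, 1 to 2 from 8 to 16 hpl, 0 to 1 from 16 to 24 hpl and 1 to 3 from 24 to 36 hpl. Of these, 3 at 24 hpl came without replicate 2 of 0 hpl or of 24 hpl, and 0 from 16 to 24 hpl without replicate 1 of 16 or of 24 hpl. The cause of these shifts was not tested. Calls against 0 hpl of hey1 and jag2 at all 4 times, of dlc, her9 and her4.2 at 36 hpl, and of adam17a, pofut2, tle3b and nle1 at all 4 times were kept at an adjusted p under 0.05 in every other fit in which the gene was tested. The authors' table selected these genes on contrasts against 0 hpl from the same arrays, so the kept calls are no further test. With the replicate block 4 members were called at 24 hpl, where the her4 cluster probe set was lost (adjusted p = 0.0628), and the block changed no other member call.

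Over all probe sets, the step from 16 to 24 hpl had 87 calls, and 545 with array weights, 142 with only the groups compared, 134 without the arrays of low weight, 55 with the replicate block and 32 with scaling on the hybridisation controls. From 8 to 16 hpl there were 1332 calls, 2078 with array weights and 806 with only the groups compared. At 8 against 0 hpl there were 4108 calls, and 2354 with only the groups compared. From 24 to 36 hpl there were 797 calls, and 1207 with array weights. RMA values have no detection calls, so signal over background is unknown for the dim probe sets dlc, jag1b, her4.2 and her4 cluster. The same holds for other values below 4.63, such as those of pofut1 up to 24 hpl and of nle1 and most of pofut2 at 0 hpl. It also holds for the dld mean at 8 hpl, id4 at all times but 8 hpl, nrarpb from 16 hpl on and dtx3 at 36 hpl. Earlier nrarpb arrays below 4.63 were replicates 1 and 2 of 0 hpl (4.55 and 3.98) and 2 and 3 of 8 hpl (3.95 and 3.33). The motif and protein comparisons planned for the members were not run.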
